A study of Homo sapiens with 6 samples.

Results

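The transcripts described here come from 10 genes that ERK signalling switches on and that then act on the same pathway: the dual-specificity phosphatase genes DUSP4, DUSP5 and DUSP6, the Sprouty genes SPRY1, SPRY2 and SPRY4, the Sprouty-related genes SPRED1 and SPRED2, and the ETS transcription factor genes ETV4 and ETV5. They were picked by gene name, by a rule that uses no measured value but was written with earlier results of these data known, and all 10 were found among the 35410 genes of the deposited table. Gene expression was measured by MACE-Seq, which sequences the 3′ ends of mRNA, in SEM cells, an established leukemia cell line labelled as a proB line with the KMT2A::AFF1 fusion. SEM::EGR3 carries a doxycycline-inducible EGR3 transgene and SEM::mock the empty vector. Both lines received 1 µg/mL doxycycline for 48 h before RNA extraction, so the controls carry the inducer and the vector as well, and 3 libraries were made from each line. EGR3 encodes an immediate early zinc finger transcription factor that is itself induced through ERK.

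In the RAS-RAF-MEK-ERK cascade, growth factor receptors load RAS with GTP, RAS recruits RAF kinases, RAF phosphorylates MEK, and MEK phosphorylates ERK. Active ERK raises transcription of its own brakes: DUSP proteins dephosphorylate ERK, while Sprouty and SPRED proteins act further up, at the level of RAS and RAF activation. ETV4 and ETV5 are ETS activators whose transcripts are commonly read together with DUSP6 and SPRY4 as an output of the pathway.

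The libraries held 5286115 to 6181388 counts in listed genes for SEM::mock and 7293092 to 15106018 for SEM::EGR3. EGR3 itself was near background in the 3 SEM::mock libraries (8, 10 and 6 counts) and reached 9768, 4952 and 5557 counts in the SEM::EGR3 libraries, so the transgene label held throughout. The cell type label held less well for SEM::mock. Of 12 proB markers, 9 had at most 3 counts in each SEM::mock library, PAX5 had 1, 1 and 2 counts and EBF1 had none. BLNK, DNTT and RAG2 had none in SEM::mock and at most 2 counts in any SEM::EGR3 library, so these 3 were near 0 in both lines. The summed proB marker level was 2.64 to 5.86 CPM (a gene's counts per 1000000 counts of its library) in SEM::mock and 495 to 522 in SEM::EGR3. Erythroid markers, which include the globin genes HBZ and HBG2, summed to 4885 to 5182 CPM in SEM::mock and 6106 to 6359 in SEM::EGR3, high in all 6 libraries. Of the 11 tested, 3 were called higher in SEM::EGR3, HBZ among them, and 8 lower, HBG2 among them. Of 8 genes activated by KMT2A fusions, 7 were called higher and 1 lower in SEM::EGR3, with HOXA7 at 0 in all SEM::mock libraries. Of those called higher, HOXA5, HOXA7, HOXA9, PBX3 and FLT3 entered the test only through their SEM::EGR3 counts. Over all genes tested, 36.5% were called higher and 32% lower. Summed myeloid markers were 279 to 288 CPM in SEM::mock and 95.1 to 96.9 in SEM::EGR3, and summed T cell markers 85.9 to 97.3 and 10.3 to 12.3 CPM. Fibroblast and epithelial markers summed to 755 to 786 and 455 to 478 CPM. Of the 6 tested, 4 were called lower, among them KRT18 (317 to 89.3 CPM). The other 2 were called higher, COL1A1 (3.61 to 43.0 CPM) and COL1A2 (2.91 to 22.6 CPM). Megakaryocyte markers summed to 11.2 to 12.1 and 12.5 to 14.4 CPM. These lists move with the line in every library, their part in the results below was not tested, and no fit without the affected libraries was possible, because the low proB markers concern every SEM::mock library and the erythroid markers every library of both lines. The effect of EGR3 and any other difference between the lines therefore cannot be told apart, nor can fewer cells of a type be told from less RNA per cell.

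The feedback genes did not move as a block between SEM::mock and SEM::EGR3. DUSP6, SPRY2 and ETV5 rose in SEM::EGR3, DUSP5, SPRY1, SPRY4, SPRED2 and ETV4 fell, and DUSP4 and SPRED1 did not pass the test (edgeR, adjusted p under 0.05). Every gene family with 1 exception therefore held members called in opposite directions, the exception being SPRED, where only SPRED2 was called. For the DUSP family this rests on DUSP6, whose SEM::mock counts were below the filter. With 8 of 10 members called against 68.5% of the 15465 genes tested, 3 higher against 36.5% and 5 lower against 32%, the count of calls is close to that of all genes and is not a property of these members. The libraries of the lines did not overlap for 9 members, 3 higher and 6 lower, where 70.1% of all genes tested had no overlap, 37.5% higher and 32.6% lower. Changes of at least 2-fold were seen for DUSP6 upward and for SPRY4 and ETV4 downward, against 16.7% and 8.5% of all genes. DUSP6 entered the test only through its SEM::EGR3 counts. The median log2 fold change of the 10 members was -0.37 against 0.03 over all genes tested, and the median of the absolute log2 fold change was 0.73 against 0.47. All log2 fold changes are SEM::EGR3 minus SEM::mock, and all levels are CPM of 3′-end counts scaled with edgeR's TMM factors, with no correction for transcript length. They compare a gene between libraries and not 1 gene with another.

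**Figure D1:**
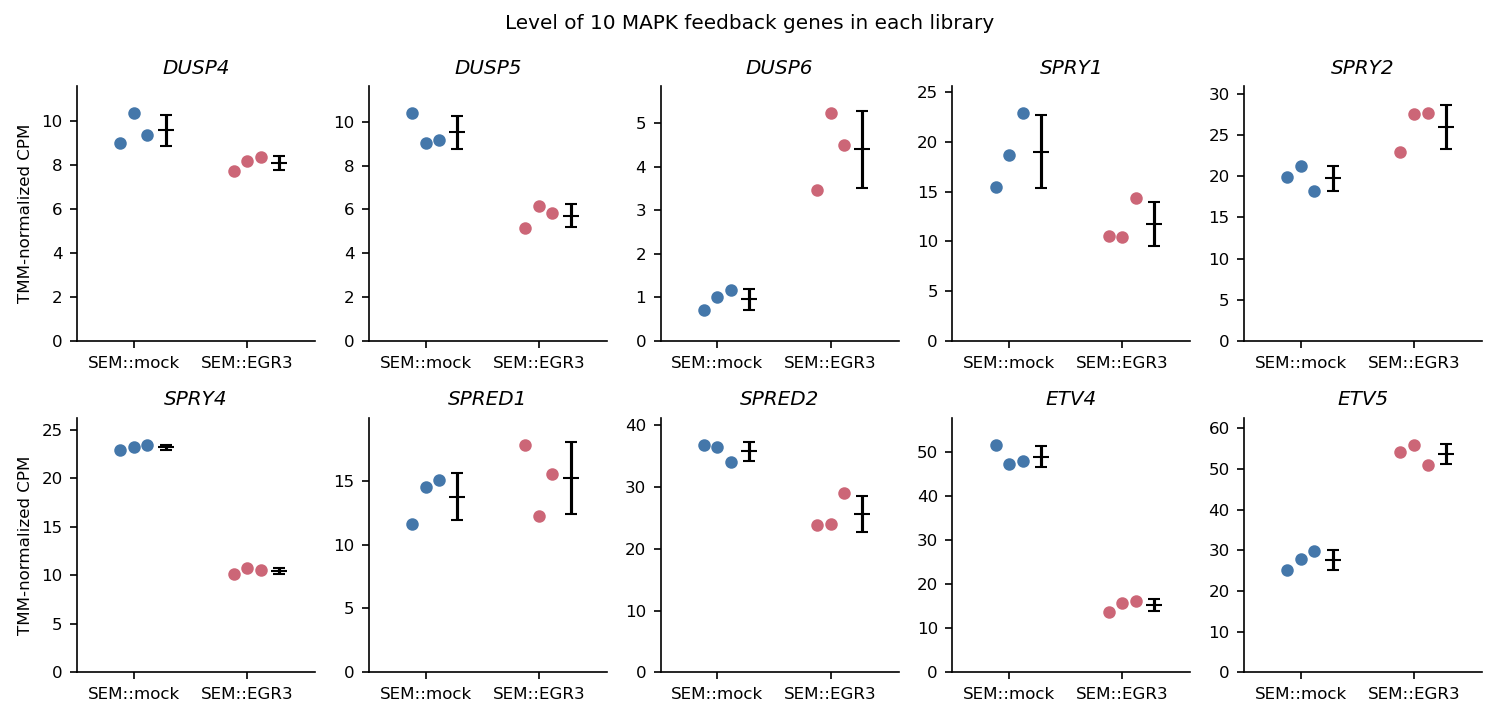
Level of each feedback gene in each library, in TMM-scaled CPM, with 3 SEM::mock and 3 SEM::EGR3 libraries as points and the mean ± SD of each line. The lines separate without overlap in all genes but SPRED1, upward for DUSP6, SPRY2 and ETV5 and downward for the other 6.

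Among the phosphatase genes, DUSP6 rose, DUSP5 fell and DUSP4 did not pass the test. DUSP6 (ENSG00000139318, chromosome 12, 89347232 to 89353271, minus strand, GRCh38) encodes a cytoplasmic phosphatase with a strong preference for ERK. It was scarce in SEM::mock, with 4, 6 and 6 counts or 0.704, 1.00 and 1.17 CPM, and reached 54, 39 and 41 counts or 3.47, 5.23 and 4.51 CPM in SEM::EGR3. The lowest SEM::EGR3 library was above the highest SEM::mock library, and the mean went from 0.959 ± 0.237 to 4.40 ± 0.887 CPM (SD, n = 3 libraries each), a 4.38-fold rise (log2 fold change 2.13 ± 0.33, SE). The handful of counts in SEM::mock leaves a wide 95% interval of 1.46 to 2.81 for that log2 fold change. DUSP6 entered the test only through its SEM::EGR3 counts, so no p-value is given for it.

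DUSP5 (ENSG00000138166, chromosome 10, 110497838 to 110511544, plus strand) encodes a nuclear phosphatase of ERK. Its level was 10.4, 9.01 and 9.18 CPM in SEM::mock and 5.14, 6.17 and 5.83 CPM in SEM::EGR3. All SEM::EGR3 libraries lay below all SEM::mock libraries, a 1.70-fold fall (log2 fold change -0.76 ± 0.17, SE; edgeR adjusted p = 0.000242). DUSP4 (ENSG00000120875, chromosome 8, 29333064 to 29350668, minus strand) encodes a nuclear phosphatase of ERK, JNK and p38. It measured 8.98, 10.3 and 9.37 CPM in SEM::mock and 7.71, 8.18 and 8.37 CPM in SEM::EGR3. Its libraries did not overlap either, but the log2 fold change of -0.25 ± 0.15 (SE) had a 95% interval of -0.57 to 0.06 and did not pass (edgeR adjusted p = 0.137).

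Sprouty transcripts changed in opposite directions, with SPRY4 and SPRY1 lower and SPRY2 higher in SEM::EGR3. SPRY4 (ENSG00000187678, chromosome 5, 142310427 to 142326455, minus strand), an inhibitor of receptor tyrosine kinase signalling to RAS and RAF, gave 22.9, 23.2 and 23.4 CPM in SEM::mock and 10.1, 10.7 and 10.6 CPM in SEM::EGR3. The spread within each line was small beside the gap between them, and the level fell 2.22-fold (log2 fold change -1.15 ± 0.11, SE; edgeR adjusted p = 1.79e-09). SPRY1 (ENSG00000164056, chromosome 4, 123396795 to 123403760, plus strand) gave 15.5, 18.7 and 22.9 CPM in SEM::mock and 10.5, 10.5 and 14.3 CPM in SEM::EGR3. The highest SEM::EGR3 library was just below the lowest SEM::mock library, and the fall was 1.62-fold (log2 fold change -0.70 ± 0.15, SE; edgeR adjusted p = 0.000160). SPRY2 (ENSG00000136158, chromosome 13, 80335976 to 80340951, minus strand), the paralogue best known as an inducible antagonist of growth factor signalling, moved the other way. It gave 19.9, 21.2 and 18.2 CPM in SEM::mock and 22.9, 27.5 and 27.6 CPM in SEM::EGR3. The rise was the smallest of the called changes, at 1.29-fold (log2 fold change 0.37 ± 0.11, SE; edgeR adjusted p = 0.00396).

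EGR proteins bind GC-rich elements, so the promoter sequences of the RefSeq table (GRCh38.p14, 250 bases before to 50 bases after each start) were searched for exact letters on both strands. The table held 10 starts for 6 of the 10 members, SPRY1, SPRY2, SPRY4, SPRED1, SPRED2 and DUSP6, and not for DUSP4, DUSP5, ETV4 and ETV5. The EGR element GCGTGGGCG matched in no member window, and in 0.795% of the 35116 promoters. The variant GCGGGGGCG matched at 1 start each of SPRY1 and SPRY2, and in 5.07% of all promoters. The stretch upstream of SPRY2 is shown because it carries this match in the Sprouty gene that rose, at chr13:80341127-80341376 on the minus strand, and the SPRY1 site is shown for comparison as the match in a Sprouty gene that fell, at chr4:123398348-123398376 on the plus strand. Capitals mark the letters that match GCGGGGGCG or its reverse complement.
SPRY2: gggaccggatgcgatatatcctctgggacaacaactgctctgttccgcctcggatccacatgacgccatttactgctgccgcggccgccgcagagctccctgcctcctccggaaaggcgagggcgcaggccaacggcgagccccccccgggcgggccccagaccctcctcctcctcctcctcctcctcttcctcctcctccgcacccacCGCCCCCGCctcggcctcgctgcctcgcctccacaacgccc
SPRY1: gccggtggcgGCGGGGGCGggggaggccg
The SPRY2 match lies 41 to 33 bases before its start, the SPRY1 match 28 to 20 bases before its start. The same letters thus stood near the start of a member that rose and of a member that fell, which describes the windows and says nothing of binding. The AP-1 element TGANTCA, present in 7.71% of all promoters, matched at 1 start of SPRED2. The ETS element CCGGAAG, present in 10.3%, matched near the SPRY1 start, while the CREB element TGACGTCA, present in 1.85%, matched in no member window. In all, 3 of the 6 genes had any match, and no matches overlapped.

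SPRED2 fell and SPRED1 did not pass the test. Both encode membrane proteins that bring the RAS GTPase-activating protein neurofibromin to RAS. SPRED2 (ENSG00000198369, chromosome 2, 65310851 to 65432637, minus strand) gave 36.8, 36.4 and 34.0 CPM in SEM::mock and 23.9, 24.0 and 28.9 CPM in SEM::EGR3. No libraries overlapped, and the level fell 1.40-fold (log2 fold change -0.49 ± 0.09, SE; edgeR adjusted p = 6.00e-05). SPRED1 (ENSG00000166068, chromosome 15, 38252326 to 38357249, plus strand) gave 11.6, 14.5 and 15.0 CPM in SEM::mock and 17.8, 12.2 and 15.5 CPM in SEM::EGR3. It was the only member whose libraries overlapped, with a log2 fold change of 0.19 ± 0.14 (SE), a 95% interval of -0.10 to 0.48 and an edgeR adjusted p = 0.242. Without SEM::EGR3 replicate 2, its lowest SEM::EGR3 library, the log2 fold change was 0.30 and passed the threshold (edgeR adjusted p = 0.0458).

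The clearest opposite pair were the ETS factor genes, with ETV4 falling and ETV5 rising. ETV4 (ENSG00000175832, chromosome 17, 43527844 to 43579620, minus strand) gave 51.7, 47.4 and 48.0 CPM in SEM::mock and 13.7, 15.8 and 16.2 CPM in SEM::EGR3. The mean fell 3.27-fold, from 49.1 ± 2.35 to 15.2 ± 1.35 CPM (SD, n = 3 libraries each; log2 fold change -1.71 ± 0.09, SE; edgeR adjusted p = 2.76e-14), the largest fall among the members. ETV5 (ENSG00000244405, chromosome 3, 186046308 to 186110318, minus strand), a paralogue with a closely similar DNA-binding domain, gave 25.2, 27.9 and 29.9 CPM in SEM::mock and 54.2, 55.9 and 51.0 CPM in SEM::EGR3. Its mean rose 1.94-fold, from 27.6 ± 2.37 to 53.7 ± 2.52 CPM (SD, n = 3 libraries each; log2 fold change 0.96 ± 0.08, SE; edgeR adjusted p = 2.36e-10). Neither change rested on 1 library: with each left out in turn, the log2 fold change stayed between -1.76 and -1.61 for ETV4 and between 0.88 and 1.00 for ETV5.

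**Figure D2:**
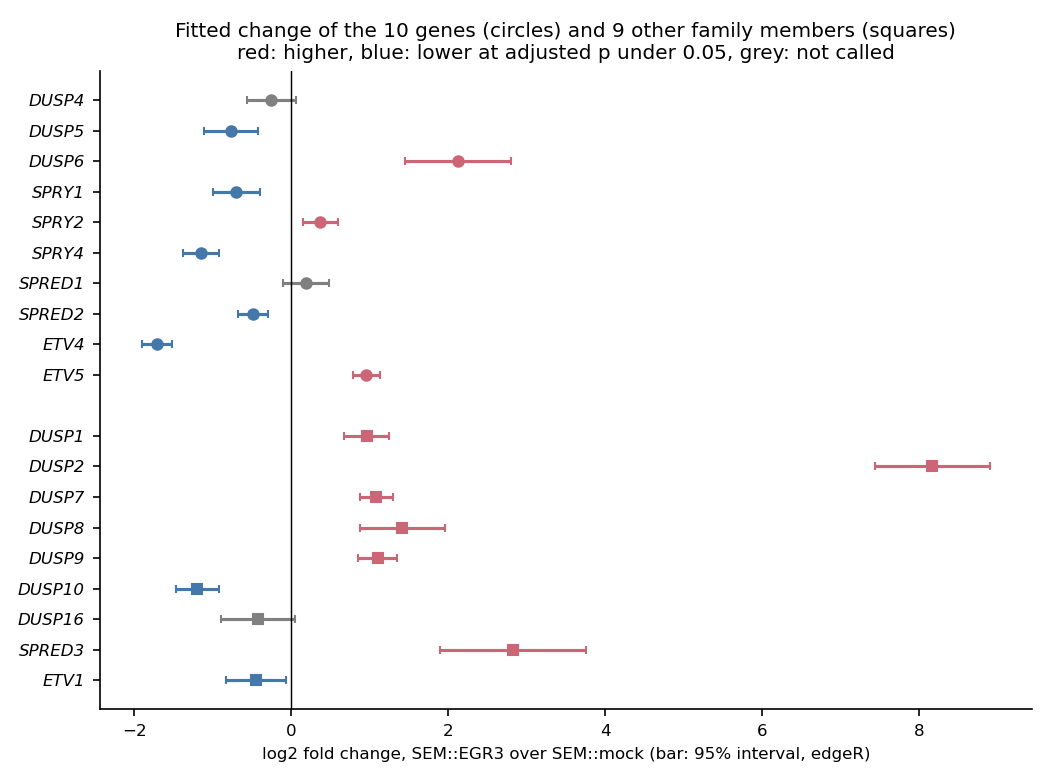
Log2 fold change of SEM::EGR3 over SEM::mock for each feedback gene (circles) and 9 other family members (squares) from the edgeR fit, with its 95% confidence interval, and 0 as no change. The estimates of the feedback genes run from -1.71 for ETV4 to 2.13 for DUSP6, and among them the intervals of DUSP4 and SPRED1 include 0.

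Because family members moved in opposite directions, the summed transcript level of the DUSP, Sprouty and ETV families moved less than their members did. The ETV pair together held 76.7 ± 1.36 CPM in SEM::mock and 68.9 ± 2.50 CPM in SEM::EGR3 (SD, n = 3 libraries each), 0.899 times the SEM::mock level. The 3 DUSP genes together held 20.1 ± 0.313 and 18.2 ± 1.69 CPM, 0.908 times the SEM::mock level. The Sprouty genes summed to 61.9 ± 3.25 and 48.3 ± 4.46 CPM and the SPRED pair to 49.4 ± 1.29 and 40.8 ± 4.20 CPM. All 10 genes together summed to 208 ± 3.96 CPM in SEM::mock and 176 ± 6.69 CPM in SEM::EGR3. These sums are given without a test.

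The make-up of each family was expressed as the share of its summed counts held by each member within a library, which no scaling between libraries can alter. ETV5 held 32.7%, 37.0% and 38.3% of the ETV4 and ETV5 counts in SEM::mock and 79.8%, 77.9% and 75.9% in SEM::EGR3, higher in every SEM::EGR3 library than in any SEM::mock library. SPRY2 held 34.1%, 33.6% and 28.2% of the Sprouty counts in SEM::mock and 52.6%, 56.5% and 52.6% in SEM::EGR3, while the share of SPRY4 went from 37.5% ± 1.58 to 21.8% ± 1.58 (SD, n = 3 libraries each). DUSP6 held 3.51%, 4.92% and 5.94% of the DUSP counts in SEM::mock and 21.3%, 26.7% and 24.1% in SEM::EGR3, and DUSP5 went from 47.5% ± 3.84 to 31.4% ± 0.188. For each of these shares the lines did not overlap, which gives an exact two-sided permutation p = 0.1, the smallest that 3 against 3 libraries can reach, and p = 0.133 after Benjamini-Hochberg adjustment over 8 shares. The SPRED1 share, 27.7% ± 3.41 and 37.1% ± 4.87, had the same p, and the shares of DUSP4 and SPRY1 overlapped between the lines (exact permutation p = 0.2 for both). No share can pass a threshold of 0.05 in this design.

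**Figure D3:**
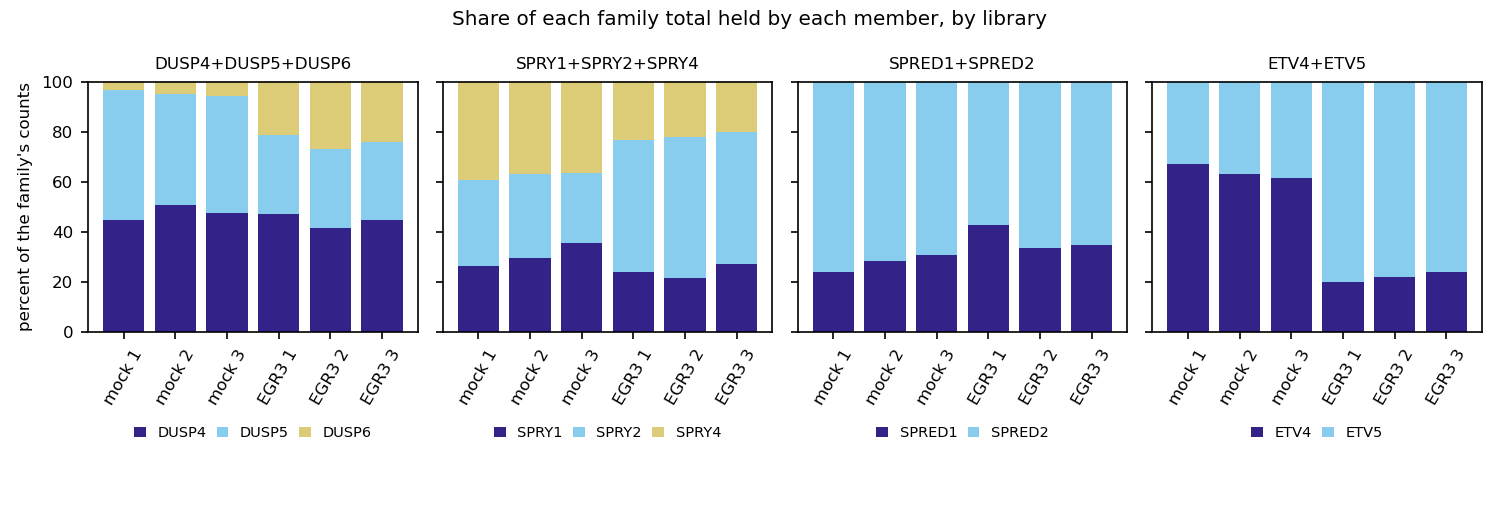
Share of each family's summed counts, in percent, held by each member in each of the 6 libraries, with families DUSP (DUSP4, DUSP5, DUSP6), SPRY (SPRY1, SPRY2, SPRY4), SPRED (SPRED1, SPRED2) and ETV (ETV4, ETV5). ETV5 goes from 36.0% to 77.9% of its pair on average, SPRY2 comes to 53.9% and DUSP6 from 4.79% to 24.0%.

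Expressed as count ratios of paralogues, which were picked after the values were seen and carry no test, ETV5 over ETV4 was 0.486, 0.588 and 0.622 in SEM::mock and 3.96, 3.53 and 3.15 in SEM::EGR3. SPRY2 over SPRY4 was 0.869, 0.914 and 0.775 in SEM::mock and 2.26, 2.56 and 2.61 in SEM::EGR3. DUSP6 over DUSP5 was 0.0678, 0.111 and 0.128 in SEM::mock and 0.675, 0.848 and 0.774 in SEM::EGR3.

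Of the remaining genes of the same families, a list of 10, 9 could be tested. Among them 6 rose, 2 fell and 1 did not pass, where 36.5% of all genes tested rose and 32% fell. Of the 6 rises, 4 were in DUSP genes besides DUSP2. DUSP2, which encodes a nuclear ERK phosphatase of immune cells, was read 0, 1 and 1 times in the SEM::mock libraries and 495, 294 and 426 times in the SEM::EGR3 libraries. DUSP2 entered the test only through its SEM::EGR3 counts, so no fold or p-value is given for it. It was thus nearly undetected in SEM::mock and present in every SEM::EGR3 library. DUSP1, the classic immediate early MAPK phosphatase, rose from 8.68 ± 1.34 to 17.0 ± 1.47 CPM (SD, n = 3 libraries each; edgeR adjusted p = 1.54e-06). DUSP7 and DUSP9, which with DUSP6 form the cytoplasmic ERK phosphatases, rose from 16.9 to 35.8 CPM (log2 fold change 1.09 ± 0.10, SE) and from 13.5 to 29.4 CPM (log2 fold change 1.10 ± 0.12, SE). DUSP6, DUSP7 and DUSP9 were thus each higher in SEM::EGR3, as were 36.5% of all genes tested. Of these, DUSP6 entered the test only through its SEM::EGR3 counts.

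The phosphatases that act mainly on JNK and p38 did not move together. DUSP8 rose from 1.75 to 4.64 CPM (log2 fold change 1.42 ± 0.26, SE), DUSP10 fell from 20.1 to 8.77 CPM (log2 fold change -1.19 ± 0.13, SE), and DUSP16 measured 4.49 and 3.31 CPM without passing the test (edgeR adjusted p = 0.104). DUSP8 entered the test only through its SEM::EGR3 counts, as its 11, 7 and 11 counts in SEM::mock would not have passed the filter alone. SPRED3, the remaining SPRED gene, rose from 4, 3 and 0 counts in SEM::mock to 48, 27 and 23 in SEM::EGR3 (log2 fold change 2.83 ± 0.45, SE). The log2 fold change was 3.42 without SEM::mock replicate 1. SPRED3 too entered the test only through its SEM::EGR3 counts, so no p-value is given for it. SPRY3, with 4, 3 and 0 counts in SEM::mock and 12, 3 and 4 in SEM::EGR3, did not pass the filter on low counts. ETV1, the remaining gene of the ETV4 and ETV5 subfamily, measured 7.78 ± 1.90 and 5.58 ± 0.343 CPM (SD, n = 3 libraries each; log2 fold change -0.45 ± 0.19, SE; edgeR adjusted p = 0.0371), a call that was lost with DESeq2 (adjusted p = 0.0955) and without SEM::mock replicate 3 (adjusted p = 0.277).

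Genes upstream of RAS changed in both directions, 8 of 20 higher, 6 lower and 6 not called, with a median log2 fold change of 0.07. These counts are close to the 36.5% higher and 32% lower of all genes tested. The receptor gene FLT3 went from 1, 0 and 4 counts to 4998, 2285 and 2961, and PDGFRB from 0, 1 and 0 counts to 1366, 682 and 813. The insulin receptor gene INSR rose from 1.69 to 50.3 CPM and the RAS exchange factor gene RASGRP1 from 1.05 to 4.60 CPM. In the other direction, the stem cell factor receptor gene KIT fell from 15.6 to 6.55 CPM, and the exchange factor genes RASGRP4 and SOS1 fell from 4.73 to 0.868 and from 29.9 to 20.4 CPM. RASGRP3, a further exchange factor, fell with a log2 fold change of -1.09. FLT3, PDGFRB, INSR and RASGRP1 entered the test only through their SEM::EGR3 counts, and RASGRP4 only through its SEM::mock counts. No fold is given for these genes.

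Of 13 RAS and RAS-inactivating genes, 6 rose, 5 fell and 2 were not called (median log2 fold change 0.14), where 36.5% of all genes tested rose and 32% fell. Those that rose most were GTPase-activating proteins, which return RAS to its inactive form: DAB2IP (log2 fold change 1.87), RASA1 (1.63, from 13.7 to 42.1 CPM), RASA2 (1.15) and RASAL2 (0.93). Of these, DAB2IP entered the test only through its SEM::EGR3 counts. Those that fell most were the RAS-related GTPase genes RRAS (-1.23) and RRAS2 (-1.03), the GTPase-activating gene RASA3 (-1.02) and LZTR1 (-0.85), which directs RAS proteins to degradation.

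In the kinase core, 7 of 13 genes fell, 3 rose and 3 were not called, with a median log2 fold change of -0.18, where 32% of all genes tested fell and 36.5% rose. The count that fell was 5 with the authors' library totals and 6 with the other scalings and filters. MAP2K1, which encodes MEK1, fell from 54.0 to 33.0 CPM (log2 fold change -0.71). The ERK-binding protein gene PEA15 fell by 0.71 and the scaffold gene IQGAP1 by 0.51 on the log2 scale. The kinase gene ARAF rose by 0.37 and SHOC2, a RAF activator, by 0.94 on that scale. No gene of this group changed 2-fold.

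Among genes of ERK substrates, 6 of 9 tested rose, 2 fell and 1 was not called, where 36.5% of all genes tested rose and 32% fell. The median log2 fold change of these substrates was 0.45. RPS6KA5, which encodes the histone kinase MSK1, rose from 6.12 to 18.6 CPM, the translation kinase gene MKNK2 from 155 to 310 CPM, and RPS6KA3 and the ETS factor gene ELK4 each rose less (0.73 and 0.68 on the log2 scale). ELK3, an ETS factor of the same ternary complex group as ELK4, fell from 20.1 to 4.90 CPM (log2 fold change -1.99 ± 0.14, SE), and MKNK1 fell from 49.1 to 30.6 CPM. As with ETV4 and ETV5, and with MKNK1 and MKNK2, paralogues were called in opposite directions.

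Of 17 other transcripts used as outputs of ERK signalling that could be tested, 10 fell, 3 rose and 4 were not called, with a median log2 fold change of -0.41, where 32% of all genes tested fell and 36.5% rose. EGR1, an immediate early factor of the same family as EGR3, fell from 305 ± 23.6 to 51.3 ± 7.79 CPM (SD, n = 3 libraries each; log2 fold change -2.56 ± 0.08, SE; edgeR adjusted p = 2.77e-19). The AP-1 gene FOSL1 fell from 29.6 to 4.90 CPM, the cyclin gene CCND1 from 126 to 31.0 CPM and PHLDA1 from 121 to 35.2 CPM. The genes that rose were KLF10 (23.5 to 85.9 CPM) and JUN (28.8 to 68.6 CPM), which encode transcription factors, and ZFP36L1 (76.0 to 213 CPM), which encodes an mRNA decay factor. Outputs of the pathway thus held members that fell and members that rose, as did the 10 feedback genes.

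**Figure D4:**
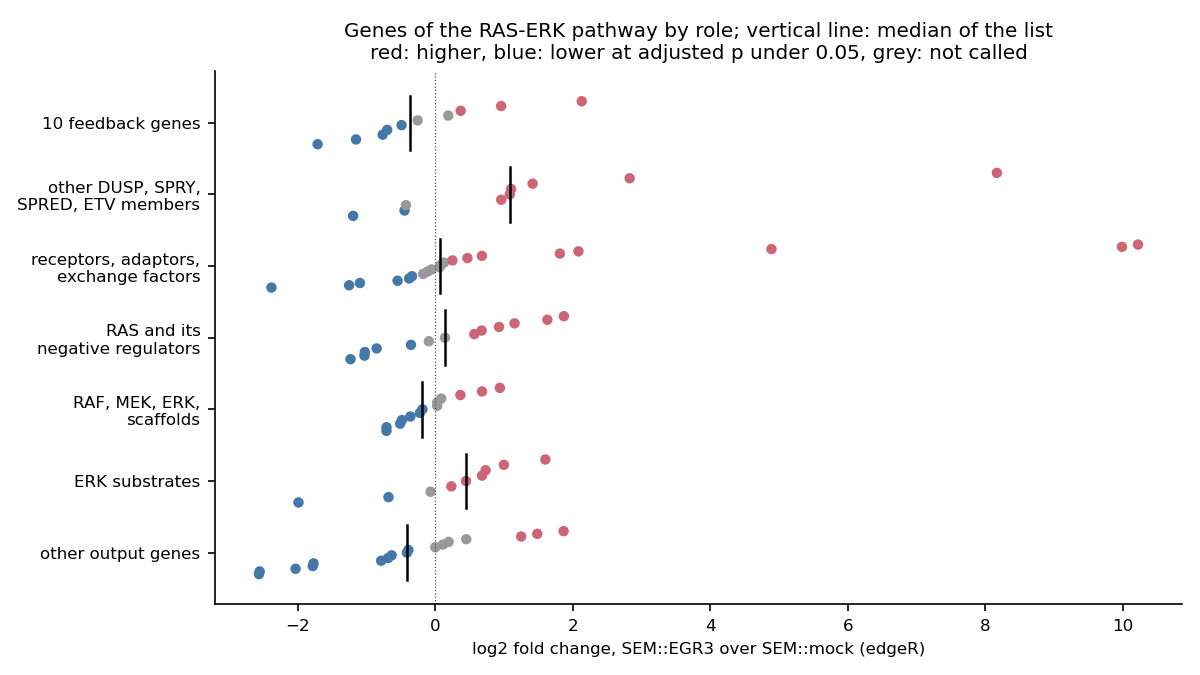
Log2 fold change of SEM::EGR3 over SEM::mock for each tested gene, by list, for the feedback genes and each list of other pathway genes. A vertical line marks the median of each list. Colour marks genes called higher, called lower or not called in SEM::EGR3 (edgeR adjusted p under 0.05). The feedback genes have 3 higher and 5 lower, the other members of their families 6 higher and 2 lower, and the other ERK output genes 3 higher and 10 lower. Over all genes tested, 36.5% were higher and 32% lower.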

How the data were processed

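MACE-Seq libraries of SEM::mock and SEM::EGR3 (3 biological replicates each, per the labels) were analysed. The authors deposited 1 table with raw counts per gene, a CPM column headed as TPM (count over library total, with no length correction), a size-factor normalized signal, and their own DESeq2 comparison (log2 fold changes, p-values and group means), which was not used. The deposited CPM and signal served only to check the counts. The submitters' processing notes name bcl2fastq, Bowtie2, HTSeq and GRCh38. The annotation, strand setting and handling of molecular identifiers are not given in the sources used here. Columns headed ERG3 were read as SEM::EGR3, and 0 columns of other samples were present. Authors' library totals were 7172067 to 20310325, of which listed genes held 73.6% to 75.8%.

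Counts were filtered with filterByExpr, scaled with TMM and tested with glmQLFit and glmQLFTest (edgeR 4.0.16, R 4.3.3), with Benjamini-Hochberg adjustment over 15465 genes and a threshold of 0.05. Alternatives were other scalings, filters, a replicate block, a minimum fold change, DESeq2 1.42.0 and leaving out each library. Family shares were compared with an exact permutation test over libraries (20 assignments). The fit was tested on simulated data. Gene positions came from GENCODE 29. Members and pathway lists were chosen with earlier results of these data known. The text names all members, all other family genes, and of each further list up to 4 genes higher and 4 lower with the largest called changes and a mean of at least 20 counts per library in the higher line. Some genes that this rule names are not reported here.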

Additional observations from a re-analysis of the deposited data

How the results depend on the processing

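No call turned its direction under any alternative, and the 10 feedback genes kept 3 higher and 5 lower calls under no scaling factors, upper-quartile factors, the authors' library totals, DESeq2, no filter and the replicate block. Leaving out each library in turn gave 3 to 4 higher and 5 lower. A minimum of 10 counts in every library removed DUSP6, which could not be fitted there. It also removed DUSP2, DUSP8 and SPRED3, and gave 3 higher and 1 lower for the other family genes. Among receptors and exchange factors it removed FLT3, PDGFRB, INSR, RASGRP1 and RASGRP4, and gave 5 higher. Testing against a minimum log2 fold change of 1 (glmTreat in edgeR) left 1 member higher (DUSP6) and 1 lower (ETV4). DUSP6 was in that test only through its SEM::EGR3 counts. The estimates no longer past that threshold were DUSP5 -0.76, SPRY1 -0.70, SPRY2 0.37, SPRY4 -1.15 (edgeR adjusted p = 0.148), SPRED2 -0.49 and ETV5 0.96. Under the same minimum, higher and lower calls were 2 and 0 for the other family genes, 5 and 1 for receptors and exchange factors, and 2 and 0 for RAS and its GTPase-activating genes. They were 0 and 0 for the kinase core, 1 and 1 for substrates, and 3 and 5 for other outputs. At an unadjusted p under 0.05 these 0 counts became 1 lower for the other family genes, 1 lower for the RAS group and 0 and 0 for the kinase core, and DESeq2 without the minimum gave 1 lower, 5 lower, and 3 higher and 6 lower. The other family genes had 1 lower call with no factors, the authors' totals, DESeq2 and the replicate block, and 1 to 2 when each library was left out. The SPRED1 log2 fold change ranged from 0.034 to 0.30 over these, the highest without SEM::EGR3 replicate 2. Same-numbered replicates did not deviate together (correlations -0.138, -0.0935 and -0.0431), so the numbers were not taken as a pairing. The block gave 5388 higher and 4694 lower calls over all genes against 5638 and 4955. Low counts limit DUSP6, SPRED3, DUSP8 and DUSP2 in SEM::mock, and all of these entered the test only through their SEM::EGR3 counts.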

Other observations

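Some feedback genes share their locus with another gene, and whether the counting used strand is not given in the sources used here, so reads from opposite strands may not be separated. DHX8, which overlaps ETV4 on the opposite strand, was counted 228, 234 and 198 times in SEM::mock and 567, 268 and 325 in SEM::EGR3 (log2 fold change -0.12, edgeR adjusted p = 0.164), where ETV4 fell by 1.71 on that scale. DGKG, which overlaps ETV5 on the same strand, was counted 9, 15 and 12 times in SEM::mock and 43, 32 and 30 in SEM::EGR3 (log2 fold change 0.62, edgeR adjusted p = 0.0549), against 143 to 167 and 417 to 843 counts of ETV5. SPRY4-AS1, antisense to SPRY4, was counted 2, 3 and 3 times in SEM::mock and 4, 3 and 8 in SEM::EGR3. Their part in the member values was not tested.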
